A study of Mus musculus with 12 samples.

Results

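Chitinase-like proteins and the machinery through which macrophages answer interleukin 4 (IL-4) and interleukin 13 (IL-13) were examined after repeated ozone inhalation in mouse alveolar macrophages, which live in the airspaces of the lung and clear what is inhaled. The 9 genes were picked by symbol, with earlier results of these data known. They are the chitinase-like proteins Chil3, Chil4 and Chil1, the response genes Retnla and Mgl2, the receptor chains Il4ra and Il13ra1, and the transcription factors Stat6 and Irf4. All 9 were found among the 55291 gene symbols of the expression table, and all 9 were above the level of mice without a read in each of the 12 mice.

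The mice were female C57BL6/NJ animals of 8 to 11 weeks, with no genetic alteration named in the labels. The 6 mice of the control group breathed filtered air, and the 6 mice of the treated group breathed ozone at 0.8 ppm, for 4 h per day on 4 consecutive days. Lungs were taken 3 days after the last exposure, and alveolar macrophages were purified by flow sorting in 2 batches, each with 3 mice of either exposure. Each library came from 1 mouse.

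IL-4 and IL-13 are cytokines of type 2 immunity. Both bind receptors that contain the IL-4 receptor alpha chain, Janus kinases at the receptor then phosphorylate the transcription factor STAT6, and STAT6 drives genes of the alternatively activated macrophage. Chil3 (also called Ym1) and Retnla (also called Fizz1 or RELM alpha) are mouse genes often used as readouts of that state. Chil3 is also made by resident alveolar macrophages of the resting lung, so its presence alone does not mark an IL-4 or IL-13 response.

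Chil3 and Chil4 are neighbours on chromosome 3, and their sequences bear on how far their values can be told apart. In the RefSeq annotation of GRCm38.p6, Chil3 lies at 106147554 to 106167564 and Chil4 at 106201491 to 106219479. The 222 bases just before the annotated start of Chil3 (chr3:106167565-106167786, minus strand) and the matching bases of Chil4 (chr3:106219508-106219729, minus strand) are given 5′ to 3′ with capitals where the 2 genes differ. The Chil4 stretch ends 28 bases before the annotated start of that gene.
Chil3: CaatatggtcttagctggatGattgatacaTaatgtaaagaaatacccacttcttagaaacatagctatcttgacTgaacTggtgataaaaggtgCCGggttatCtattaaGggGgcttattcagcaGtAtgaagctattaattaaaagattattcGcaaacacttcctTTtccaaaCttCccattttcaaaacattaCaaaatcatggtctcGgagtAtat
Chil4: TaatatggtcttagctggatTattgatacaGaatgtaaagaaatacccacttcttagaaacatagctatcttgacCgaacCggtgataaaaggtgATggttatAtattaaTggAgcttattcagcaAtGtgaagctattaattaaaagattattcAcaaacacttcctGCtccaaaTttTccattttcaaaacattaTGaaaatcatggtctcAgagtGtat
The alignment had 201 identical columns of 223, which is 90.1%.

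The coding sequences, 1197 bases in Chil3 and 1209 in Chil4, were closer still, with 95.2% of 1200 aligned columns identical. The longest identical stretch ran over coding bases 987 to 1122 of Chil3 and is shown because any 50-base read that falls inside it fits both genes equally well.
Chil3 and Chil4: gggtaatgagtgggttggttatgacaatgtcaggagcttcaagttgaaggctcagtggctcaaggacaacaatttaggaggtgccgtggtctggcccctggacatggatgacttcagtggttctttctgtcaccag
The 50 bases with the most differences, 8 in all, began at coding base 843 of Chil3 and are shown with capitals at the differences, since a read there tells the genes apart.
Chil3: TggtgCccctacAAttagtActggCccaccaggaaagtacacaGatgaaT
Chil4: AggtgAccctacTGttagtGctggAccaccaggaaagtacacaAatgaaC
Reads were 50 bases long and paired. Of the 1490 windows of that length in the Chil3 transcript, 29.4% also occurred in a transcript of another gene, namely Chil4 and the unprocessed pseudogene Gm6522. For Chil4 the share was 20.4% of 1490 windows. Mgl2 shared 16.5% of 1586 windows, 242 of them with its neighbour Clec10a. The other 6 members shared 0. The submitters' processing notes name Salmon, which divides reads that fit several transcripts by a statistical model, without saying at which step it was used. The separate values of Chil3, Chil4 and Mgl2 are therefore less certain than those of the others. Chil1 was far from both chitinase-like neighbours, with 54.9% of aligned columns identical to Chil3 and 0 shared windows.

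All values are on a log2 scale after a variance-stabilizing transformation. Every gene has a filtered-air mean of 0, so the levels of different genes cannot be ranked against each other and every difference given is an ozone mean minus a filtered-air mean. Differences of genes with few reads are compressed on this scale. A difference was called where its limma adjusted p, over the 19633 genes with reads in at least 6 mice, was under 0.05.

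The main change among the 9 genes was in Chil3, which rose after ozone. Values of Chil3, a secreted lectin that has lost chitin-cleaving activity, had a lowest, median and highest of -0.14, 0.0162 and 0.098 in filtered air and of 0.056, 0.251 and 0.40 in ozone. In 5 of the 6 ozone mice the value was above that of every filtered-air mouse, and ozone mouse 3, at 0.056, was the exception. The difference was 0.25 (SE 0.0604, 95% interval 0.118 to 0.377, adjusted p 0.032; exact permutation p within batches, two-sided, 0.015). It was 0.26 in the first flow-sort batch and 0.23 in the second. Chil3 was the 1 member called of 9, where 4.25% of all genes tested were called in either direction and 2.41% were called higher. No member was called lower, against 1.84% of all genes. In no member were the 2 groups fully apart, which was the case in 3.53% of all genes.

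The call on Chil3 was close to the threshold. The difference stayed between 0.214 and 0.29 when each mouse was left out in turn, but the adjusted p ran from 0.0142 to 0.0771, and 7 of those 12 fits did not call the gene. These were the fits without filtered-air mouse 1, 3 or 6 and without ozone mouse 1, 4, 5 or 6. Quantile normalization was also run, on the deposited values already centred on each gene's filtered-air mean rather than on library counts. The difference was then 0.22 with an adjusted p of 0.154.

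**Figure D1:**
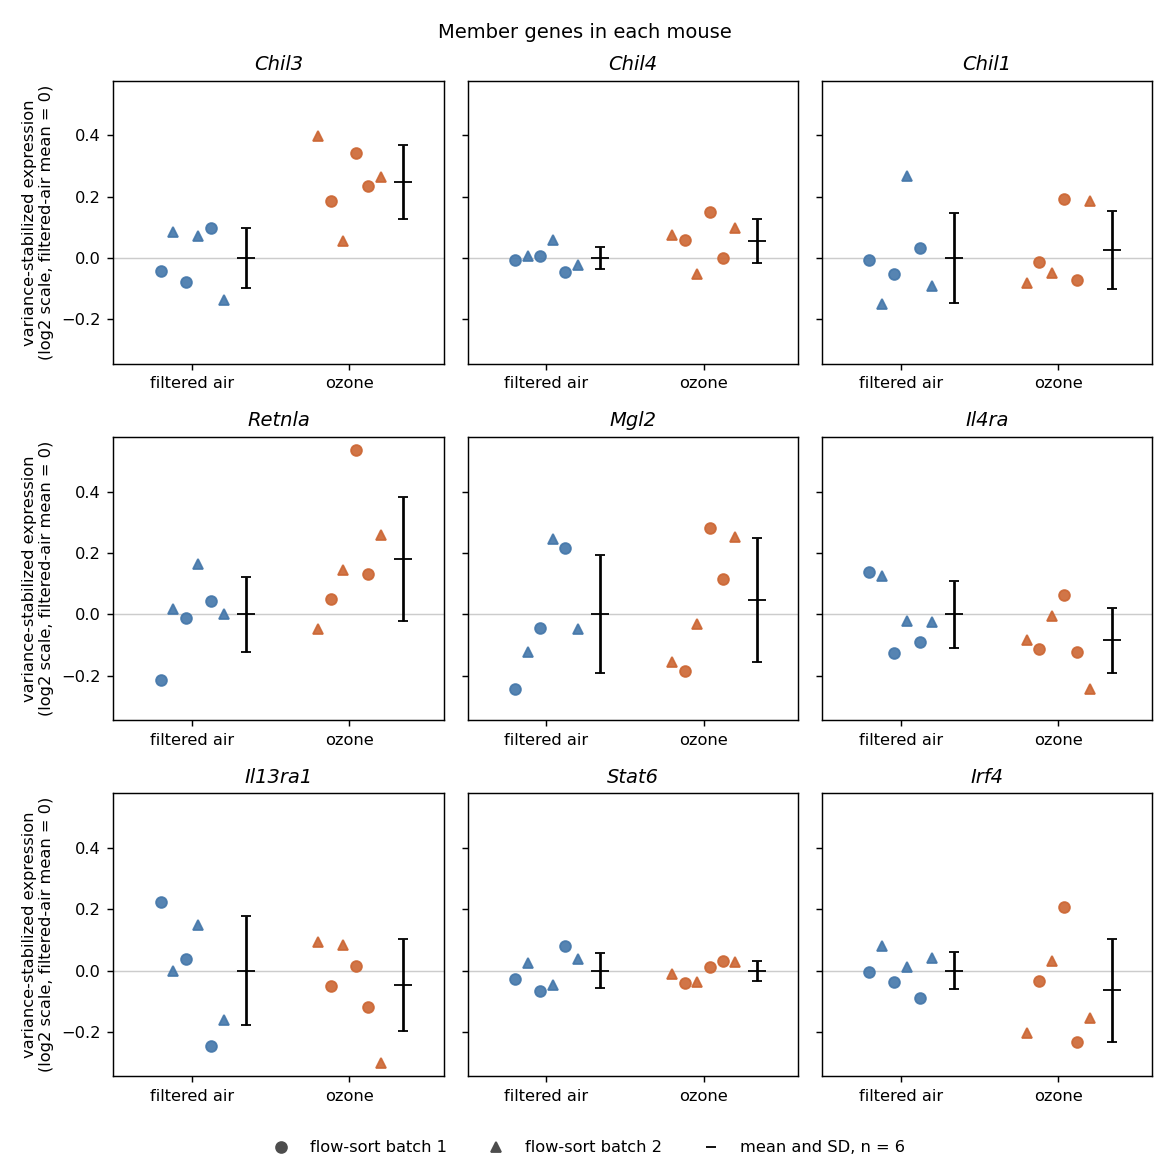
Values of the 9 member genes in each mouse (vertical axis, log2 scale, filtered-air mean 0), with 6 filtered-air and 6 ozone mice, the mean and SD of each group, and the flow-sort batch as the marker shape. In Chil3 5 of 6 ozone mice are above all filtered-air mice, while in the other genes the groups overlap further.

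Chil4 (also called Ym2), the close relative of Chil3, did not pass the test. Its values ran from -0.045 through a median of 0.000456 to 0.061 in filtered air and from -0.052 through 0.0668 to 0.15 in ozone. Ozone mice 1, 4 and 6 were above every filtered-air mouse and ozone mouse 3 was below them all. The difference was 0.055 (SE 0.0395, 95% interval -0.0299 to 0.139, adjusted p 0.558), and 0.0334 without ozone mouse 4. The upper bound of the interval lies above the lower bound for Chil3, and whether the 2 genes differed in response was not tested. Gm6522, the pseudogene that shares windows with both, had a difference of 0.017 (SE 0.0357, adjusted p 0.875).

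Chil1, which encodes the chitinase-like protein BRP-39 (YKL-40 in humans) and lies on chromosome 1 at 134182156 to 134190031, had overlapping groups. Its values ran from -0.15 to 0.27 in filtered air and from -0.08 to 0.19 in ozone, with a difference of 0.028 (SE 0.0721, 95% interval -0.127 to 0.182, adjusted p 0.903). Filtered-air mouse 4 held the highest value of all 12 mice, and ozone mice 4 and 6 came next. That interval overlaps the one of Chil3, and whether the 2 genes differed in response was not tested. The Chil1 difference was -0.00588 without filtered-air mouse 2, -0.00901 without ozone mouse 4, -0.00754 without ozone mouse 6 and 0.0872 without filtered-air mouse 4.

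Among the other chitinases and chitinase-like proteins, Chid1, a chitinase domain-containing protein, rose as well. Chid1 values ran from -0.21 through a median of 0.0201 to 0.17 in filtered air and from 0.074 through 0.308 to 0.36 in ozone. Here too 5 of 6 ozone mice were above every filtered-air mouse, the exception being ozone mouse 6. The difference was 0.27 (SE 0.0656, 95% interval 0.131 to 0.412, adjusted p 0.0305), and 8 of the 12 fits without 1 mouse did not call it, with differences from 0.225 to 0.315. Those were the fits without filtered-air mouse 3, 4 or 6 and without any of ozone mice 1 to 5, and after quantile normalization the difference was 0.219 (adjusted p 0.294). Chia1, the acidic mammalian chitinase, had a difference of 0.033 (SE 0.0492, adjusted p 0.814). Of the 9 listed genes of this family 7 could be tested, 2 were called higher and 0 lower, beside 2.41% called higher over all genes. The median difference was 0.033, against -0.0033 over all genes tested. Chit1 and Chil6 had reads in only 4 and 2 mice.

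Of 11 genes of arginine and polyamine metabolism, 1 was called (9.09%), and it fell. Over all genes tested 4.25% were called and 1.84% were called lower. Slc7a1, the cationic amino acid transporter CAT1, ran from -0.13 through a median of -0.032 to 0.14 in filtered air and from -0.46 through -0.294 to -0.18 in ozone. All 6 ozone mice were below all filtered-air mice, with a difference of -0.30 (SE 0.0576, 95% interval -0.419 to -0.172, adjusted p 0.01). After quantile normalization it was -0.256 (adjusted p 0.0793). Slc7a2, the related transporter CAT2, had a difference of 0.10 (SE 0.0497, adjusted p 0.329). Nos2, the inducible nitric oxide synthase, which makes nitric oxide from arginine, had a difference of -0.032 (SE 0.0388). The median over the 11 genes was -0.0088.

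Retnla, a secreted resistin-like protein on chromosome 16 at 48842609 to 48844461, was higher in some ozone mice but did not pass the test. Its values had a lowest, median and highest of -0.21, 0.00929 and 0.16 in filtered air and of -0.046, 0.138 and 0.54 in ozone. Only ozone mice 4 and 6 were above every filtered-air mouse, and ozone mouse 1 was below 5 of the filtered-air mice. The difference was 0.18 (SE 0.0856, 95% interval -0.00406 to 0.362, adjusted p 0.312), and without ozone mouse 4 it was 0.0999 (adjusted p 0.521). By batch it was 0.30 and 0.058. The difference of the ozone effect between batches was smallest in p for Retnla among the members (limma interaction, unadjusted p 0.167), and 0 of the 19633 genes passed for that interaction after adjustment, with 510 under an unadjusted 0.05. Of the 4 resistin family genes 3 could be tested and 0 were called. Retn, resistin itself, had a difference of 0.07 (SE 0.0447, adjusted p 0.495), Retnlg had one of -0.018 (SE 0.0668, adjusted p 0.938), and Retnlb had 1 value in all mice.

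Mgl2, a galactose-binding lectin also called CD301b, lies on chromosome 11 at 70130125 to 70137542. Its values ran from -0.24 to 0.24 in filtered air and from -0.19 to 0.28 in ozone, with a difference of 0.046 (SE 0.0995, 95% interval -0.167 to 0.259, adjusted p 0.881). It was -0.00818 without filtered-air mouse 1, -0.00655 without ozone mouse 4 and 0.1 without filtered-air mouse 4. Mice of both groups spread over the whole range, and the 0.28 and 0.25 of ozone mice 4 and 6 lay beside the 0.24 and 0.22 of filtered-air mice 4 and 5. Clec10a, its near copy CD301a, had a difference of -0.045 (SE 0.0652, adjusted p 0.809).

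Of the 23 tested genes in the list of other IL-4 or IL-13 targets of macrophages, Mgl2 included, 1 was called. That is 4.35%, beside 4.25% over all genes tested. Ptgs1, the constitutive cyclooxygenase COX-1, rose from a range of -0.21 to 0.42 in filtered air to a range of 0.54 to 0.71 in ozone, with medians of -0.0565 and 0.629. The groups were fully apart, with a difference of 0.62 (SE 0.0878, 95% interval 0.434 to 0.81, adjusted p 0.00173; exact permutation p within batches, two-sided, 0.005, the smallest that the design allows). It was also called after quantile normalization, at 0.551 (adjusted p 0.0186). Mmp12, macrophage elastase, had a difference of 0.33 (SE 0.161, adjusted p 0.327), and Mrc1, the mannose receptor, had one of -0.062 (SE 0.0472, adjusted p 0.588). The median of the 23 genes was 0.012.

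**Figure D2:**
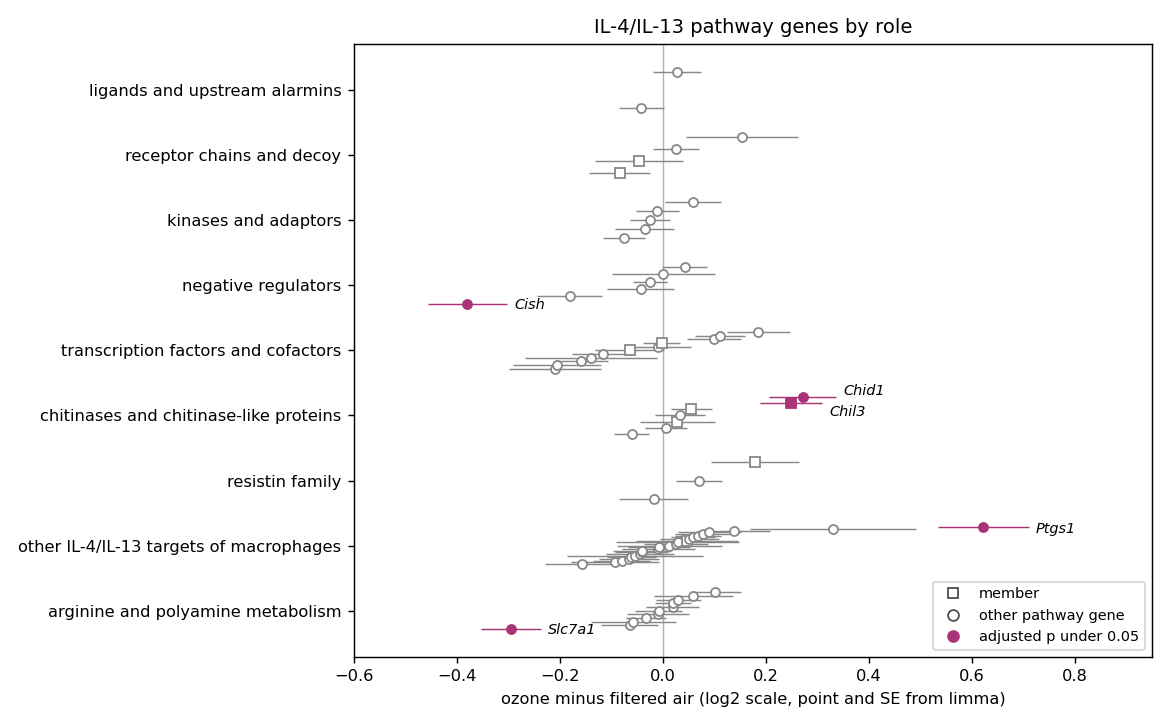
Ozone minus filtered-air difference (horizontal axis, log2 scale, point and SE from limma) of the 72 tested pathway genes, arranged by role, with members as squares and called genes filled. The 5 called genes are Chil3, Chid1 and Ptgs1 on the higher side and Cish and Slc7a1 on the lower side, while the receptor, kinase and transcription factor genes have no call.

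Upstream of these targets, no receptor chain was called. Il4ra encodes the alpha chain shared by the IL-4 and IL-13 receptors and lies on chromosome 7 at 125552271 to 125579474. Its values ran from -0.13 through a median of -0.0228 to 0.14 in filtered air and from -0.24 through -0.0984 to 0.063 in ozone. Only ozone mouse 6 was below every filtered-air mouse. The difference was -0.085 (SE 0.0592, 95% interval -0.211 to 0.0421, adjusted p 0.542). It was -0.0492 without ozone mouse 6 and -0.0542 without filtered-air mouse 1.

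Il13ra1, the chain that pairs with it to bind IL-13, lies on chromosome X at 36112108 to 36171262 and ran from -0.25 to 0.22 in filtered air and from -0.30 to 0.094 in ozone. The difference was -0.047 (SE 0.0846, 95% interval -0.228 to 0.135, adjusted p 0.852). It was 0.00307 without filtered-air mouse 1, 0.0102 without ozone mouse 6 and -0.101 without filtered-air mouse 5. The common gamma chain Il2rg had a difference of 0.024 (SE 0.0444), and Il1rl1, the receptor of the alarmin IL-33, had one of 0.15 (SE 0.109, adjusted p 0.554). Il13ra2, the decoy receptor of IL-13, had 1 value in all 12 mice, as a gene without a read has.

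The cytokines themselves were not detected in the sorted cells. Il4, Il13 and Il25 each had 1 value in all 12 mice, so no difference can be given for them at this depth. Il33 and Tslp, epithelial alarmins that act upstream of type 2 cytokines, were tested and not called. Their differences were 0.027 (SE 0.0461) and -0.042 (SE 0.0436, adjusted p 0.711), and Tslp had reads in 9 mice.

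Stat6, the transcription factor that carries the IL-4 and IL-13 signal to the nucleus, lies on chromosome 10 at 127642955 to 127660987. Its values ran from -0.065 to 0.078 in filtered air and from -0.039 to 0.032 in ozone, so the ozone values lay inside the filtered-air range. The difference was -0.0024 (SE 0.0359, 95% interval -0.0793 to 0.0745, adjusted p 0.986), the narrowest interval among the 9 genes. With each mouse left out it took either sign, between -0.0169 and 0.015. RNA does not report STAT6 phosphorylation, which was not measured here.

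Irf4, a transcription factor induced downstream of STAT6 in macrophages, lies on chromosome 13 at 30749233 to 30766981. It ran from -0.09 through a median of 0.00342 to 0.079 in filtered air and from -0.23 through -0.0946 to 0.21 in ozone. Ozone mice 1, 5 and 6 were below every filtered-air mouse and ozone mouse 4 was above them all, so the spread after ozone was wide (SD 0.167 against 0.0595, n = 6 each). The difference was -0.065 (SE 0.0669, 95% interval -0.208 to 0.0783, adjusted p 0.709), and it was 0.025 in the first batch and -0.15 in the second. It was -0.125 without ozone mouse 4, -0.0279 without mouse 5 of that group and -0.0339 without mouse 1.

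The 11 transcription factors and cofactors had 0 calls, with 3 positive and 8 negative differences and a median of -0.065. The smallest p among them was that of Kdm6b, a histone H3 lysine 27 demethylase, whose difference was -0.16 (SE 0.0518, adjusted p 0.111). Klf4, a transcription factor that acts with STAT6 in macrophages, came next in the other direction, at 0.19 (SE 0.0608, adjusted p 0.115). Under an unadjusted limma p of 0.05 were 5 of the 11, beside 3283 of all 19633 genes tested. Pparg, a nuclear receptor that alveolar macrophages need to mature, had a difference of -0.011 (SE 0.0649, adjusted p 0.962). The 5 kinases and adaptors had 0 calls and a median of -0.025, and the smallest p was that of Jak2, at -0.076 (SE 0.0416, adjusted p 0.396).

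Of the 6 negative regulators 1 was called (16.7%), beside 4.25% of all genes called in either direction and 1.84% called lower. Cish, a member of the suppressor of cytokine signalling family that restrains cytokine receptors, fell after ozone. Its values ran from -0.25 through a median of 0.0455 to 0.13 in filtered air and from -0.51 through -0.438 to -0.15 in ozone. Of the ozone mice 4 were below every filtered-air mouse, and mice 3 and 4 were not. The difference was -0.38 (SE 0.0771, 95% interval -0.545 to -0.215, adjusted p 0.0122), and after quantile normalization it was -0.317 (adjusted p 0.134). Socs1, a family member that can restrain IL-4 signalling, had a difference of -0.025 (SE 0.0326).

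Across the whole pathway list 79 of 80 symbols were in the table, 72 could be tested and 5 were called, which is 6.94% beside the 4.25% over all genes. Differences were positive in 33 of the 72 and negative in 39, and the median was -0.0082. The members gave 5 positive and 4 negative differences with a median of 0.028.

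The promoters of 9 members were in the RefSeq table of 250 bases before to 50 bases after each start, and were searched on both strands. The STAT6-type motif TTCNNNNGAA was present in 1 of them, that of Retnla, and in 6.95% of all 32851 promoters. It was not in the Chil3 or the Chil4 window. The related spacing TTCNNNGAA, which was searched after the promoters had been read, occurred in 2 of the 9, Chil3 and Chil4, and in 8.3% of all promoters. In both genes the match was TTCTTAGAA, which begins 172 bases before the start of Chil3 and 200 before that of Chil4 and lies in a run that the sequences above show in lower case. A match describes these letters only.

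The cells were sorted as alveolar macrophages, and reads alone do not tell which cells were present. All 11 alveolar macrophage marker genes had reads in at least 6 mice, and 3 of them (27.3%) were called, beside 4.25% of all genes. Car4 rose, at 0.32 (SE 0.0836, adjusted p 0.046), while Ear1 and Krt79 fell, at -0.28 (SE 0.0705, adjusted p 0.0358) and -0.35 (SE 0.0762, adjusted p 0.0177). All listed markers of monocytes, interstitial macrophages, dendritic cells, T cells and B cells also had reads in at least 6 mice. This scale does not rank their levels. Several members are also made by other cells, Chil3 by monocytes and neutrophils and Mgl2 by dendritic cells, and in sorted bulk RNA fewer cells of a type and less RNA per cell cannot be told apart. The mean of the 5 monocyte markers ran from -0.23 to 0.35 in filtered air and from -0.30 to 0.077 in ozone, with 0 genes called. The mean of the 3 neutrophil markers with enough reads, of 8 listed, ran from -0.17 to 0.40 and from -0.075 to 0.23, with 0 called, and Camp and Elane had 1 value in all mice. For the 5 dendritic cell markers the ranges were -0.16 to 0.16 and -0.22 to 0.054, with 0 called. The part of these cells in the values of Chil3 and Mgl2 was not tested.

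The marker lists also differed between mice. Ozone mouse 4 had the highest ozone value in 6 of the 9 members and was above the median of its group in all 11 lists of other cell types, although it was the highest of its group in only 2 of them. Some of these lists rest on few genes, the eosinophil list on 1 of 5 and the list of mast cells and basophils on 2 of 6. Ozone mouse 6 was the highest of its group in 6 lists and in 0 members. Filtered-air mouse 4 was the highest of its group in 4 members, was likewise above its group's median in all 11 lists, and had the lowest RNA integrity number, 8.9. Filtered-air mouse 5 and ozone mouse 6 were above their group's median in 10 of the 11 lists. With both mice numbered 4 left out, a choice made after seeing the data, the difference was 0.24 for Chil3 (adjusted p 0.0915) and 0.13 for Retnla (adjusted p 0.4). Chil3 is not called in that fit although its difference hardly moved, and with fewer mice 534 genes were called in place of 834. The part of the other cell types in the members' values was not tested.

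**Figure D3:**
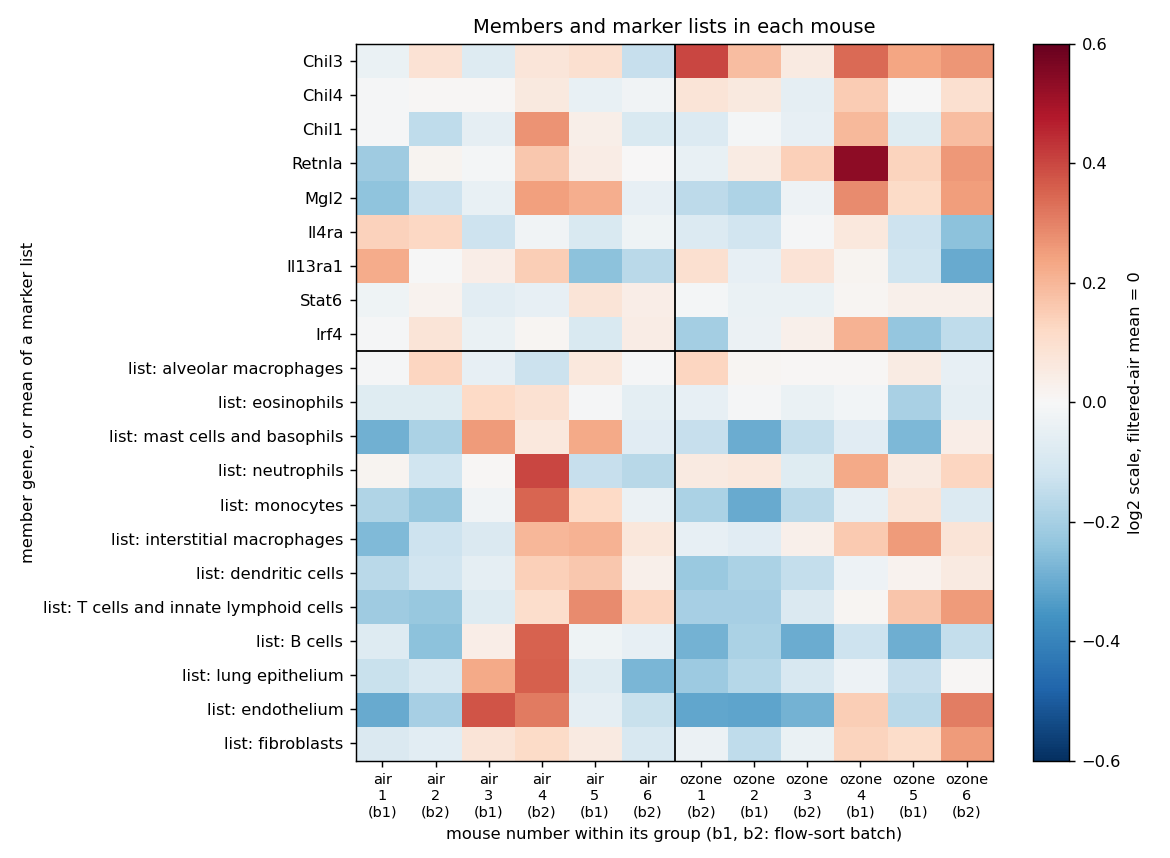
The 9 members (upper rows) and the mean of each marker list (lower rows) in each of the 12 mice (columns, filtered air left of the line, ozone right), coloured by the value on the log2 scale with the filtered-air mean at 0. Chil3 is above 0 in all 6 ozone columns, and the highest value of Retnla, 0.54, is in ozone mouse 4.

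Within exposure and batch, the genes whose values followed Chil3 most closely over the 12 mice were Uros (Pearson r 0.925), Ctsz (0.923), Nxf7 (0.92), Zfp114 (0.915) and Ddx24 (0.891). Uros is an enzyme of haem synthesis and Ctsz a lysosomal cysteine protease. These coefficients describe the 5 highest of all genes tested over mice that share sort batches. None of the 5 was called, and their differences ran from -0.0495 in Nxf7 to 0.122 in Ctsz. Among the members Chil4 (r 0.602) was the most like Chil3, and Irf4 was the least (-0.178).

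**Figure D4:**
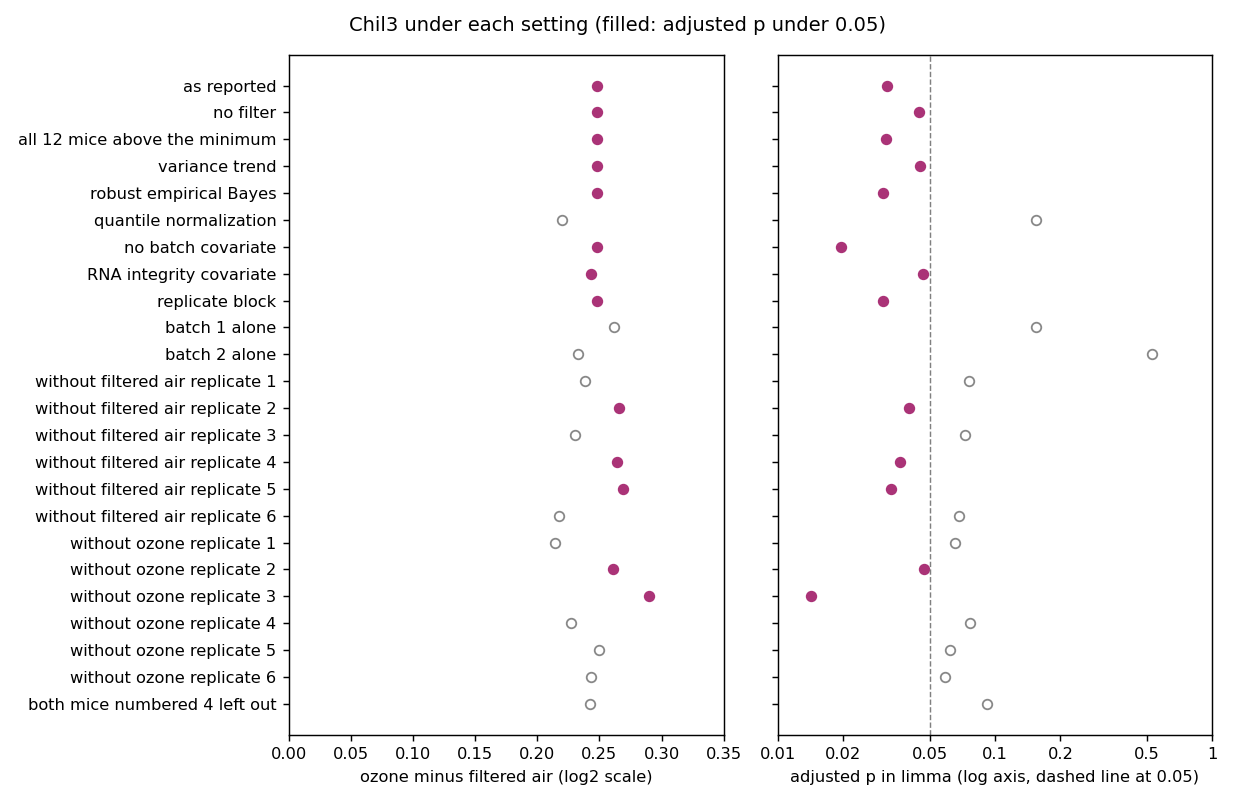
Chil3 under each way of processing (rows), with the difference between ozone and filtered air on the left (log2 scale) and the limma adjusted p on the right (log axis, dashed line at 0.05), filled where the gene was called. The difference lies between 0.214 and 0.29 in all rows, whereas the adjusted p falls on both sides of the line.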

How the data were processed

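RNA sequencing of flow-sorted alveolar macrophages from 12 mice was analysed from 1 deposited table. Per the submitters' processing notes, which give no order, the authors used cutadapt, STAR 2.7.7a, Salmon 1.5.2, DESeq2 1.26.0, R 3.6.0, limma 3.42.2 and the genome build mm10. Per the labels' protocols, libraries were stranded mRNA libraries read as paired 50-base ends. The deposited values are variance-stabilized and batch-corrected, per the deposited file's name, and such values are on a scale that approaches log2 at high counts. The filtered-air mean and the difference between batch means are 0 in every gene. Read totals are not kept in this scale, so the depth is unknown. All 12 columns matched 1 sample each, and 0 columns were left over.

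Genes with at least 6 of 12 mice above the minimum shared by mice without a read were kept (19633 of 55291). Limma 3.58.1 in R 4.3.3 fitted exposure with flow-sort batch as a covariate, two-sided, with Benjamini-Hochberg adjustment over all genes kept and a threshold of 0.05. The script was tested on simulated data. Exact permutation tests ran over the 400 assignments that keep 3 mice of each exposure in each batch, a choice made after seeing the data. Over all 924 assignments of 6 against 6 mice the p was 0.00866 for Chil3 and 0.00216 for Ptgs1. Sequences were aligned with Biopython 1.88, from RefSeq promoters and GENCODE M21 transcripts of GRCm38. The alternatives were other filters, variance models, covariates, quantile normalization, each batch alone and each mouse left out.

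The members and gene lists were chosen with earlier results of these data known. Of the 10 listed members, 9 are described in the text, figures and counts, and the other is not reported here. Named are those 9 members, called pathway genes and the smallest p of each role, called marker genes or those with 1 value in all mice, and the 5 genes most like Chil3 within groups. Other genes of the lists that are named, such as Socs1 or Pparg, were added after their values were seen. Each limma p-value sets the difference between group means against the spread between mice, moderated over all genes tested.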

Additional observations from a re-analysis of the deposited data

How the results depend on the processing

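Members called numbered 1, and 0 after quantile normalization, in each batch alone and without both mice numbered 4, with 0 to 1 when each mouse was left out. Pathway genes called numbered 5, and 1 under quantile normalization (Ptgs1), 1 in batch 1 alone, 0 in batch 2 alone, 3 without both mice numbered 4 and 3 to 6 with each mouse left out (3 without filtered-air mouse 3 or 6 or ozone mouse 1, 4 or 5). Over all genes the 834 calls became 171, 90, 0 and 534 in the same 4 settings and 538 to 751 with each mouse left out, the lowest without filtered-air mouse 1. Batches alone hold 3 mice a group, and fits that leave mice out also have fewer. Quantile normalization was applied to the deposited values, in which each filtered-air mean is already 0. It makes the distribution of these deviations alike in every mouse and is not another normalization of library counts. The cause of the loss of calls under it was not tested. Of 367 values recomputed for 16 named genes, 321 kept their direction and side of the threshold, 30 fell short of it and 16 changed sign. Only the 5 called genes could fall short. Chid1 did so in 12 settings, Chil3 in 11, Cish and Slc7a1 in 3 each and Ptgs1 in 1. The changed signs concerned small differences of genes that were not called: Mgl2 in batch 2 alone (-0.00257), Stat6 under quantile normalization (8.17e-05) and in batch 1 alone (0.00669), Irf4 in batch 1 alone (0.0245), and, with each mouse left out, Chil1 (-0.00901 to 0.0872), Mgl2 (-0.00818 to 0.1), Il13ra1 (-0.101 to 0.0102) and Stat6 (-0.0169 to 0.015). Same-numbered mice are different animals, and the correlations of their deviations ran from -0.00263 to 0.284. In 3 of 6 numbers the filtered-air mouse most like the ozone mouse had the same number. With the replicate block 853 genes, 1 member and 6 pathway genes, with Mmp12 added, were called, and Chil3 differed by 0.248 (adjusted p 0.0304). The interaction with batch called 0 genes in all 20 settings, with 405 to 746 under an unadjusted p of 0.05. In the fit reported above these were 510 of the 19633 genes tested. The unknown depth limits what can be said of genes without reads.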

Other observations

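Epcam, an epithelial adhesion protein that is listed here among lung epithelium markers, fell by 0.553 on the log2 scale (SE 0.0992, limma adjusted p 0.0062), with all 6 ozone mice below all filtered-air mice. The other 4 lung epithelium markers were not called. Epx of eosinophils and Mcpt4 of mast cells had 1 value in all 12 mice. The 5 B-cell markers all had negative differences, with a median of -0.2 and 0 calls.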
